A study of Homo sapiens with 6 samples.

Results

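The distal end of the long arm of chromosome 8, beyond 120 Mb on hg38, was described in 6 ATAC-seq peak lists of SK-N-AS neuroblastoma cells. Its members were all peaks of chromosome 8 that began at or beyond base 120000000, except those within 10 kb of the MYC gene body. They were thus chosen by position, and the stretch itself was selected on the ranks of the peaks' p-values. They numbered 3030 of 154926 and 2653 of 115694 peaks in the naive libraries, 6036 of 340558 and 5246 of 292030 in R1, and 2000 of 67558 and 2124 of 73484 in R2. The peaks left out near MYC numbered 4 to 16 a library.

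In ATAC-seq a transposase inserts tags where DNA is accessible, and a peak is a stretch with more insertions than a background level. SK-N-AS is a human neuroblastoma cell line, and it was grown as xenografts in mice. The naive cells were expanded from a vehicle-treated tumor, and R1 and R2 were expanded from indisulam-treated tumors harvested at the second relapse, during the third cycle of the drug. All cells were adherent cultures of 100000 cells a library that received no drug in culture, with 2 libraries of each cell type. R1 and R2 are each 1 expanded resistant culture, so neither stands for resistant tumors in general. Nothing in the labels says whether the 2 libraries of a type are separate cultures, and the spread between them may be technical. Mouse cells from the host cannot be read from human coordinates. A peak lay at the starts of 7 or 8 of 8 adrenergic and of 6 to 8 of 8 mesenchymal neuroblastoma markers in each library, and at 0 to 2 of 4 blood and vessel markers, none of which ranked in the top 20000.

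Distal 8q holds very different chromatin neighbourhoods. Its inner part, from 120 to 140 Mb, is gene-poor and carries the long noncoding RNA gene PVT1 beside MYC, the stress-induced gene NDRG1 and several adhesion genes. The end of the arm is rich in GC and densely packed with genes, among them the LY6 cluster of GPI-anchored surface proteins, many KRAB-type and other zinc finger genes, and the splicing factor gene PUF60. Indisulam acts by bringing the splicing factor RBM39 to a ubiquitin ligase, so genes of RNA processing are of interest here. Gains of 8q are common in human tumors. A gain of copies and a more open chromatin both raise the number of tags, and peak lists cannot tell them apart. Open chromatin was measured here, and gene expression was not.

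The annotation places 55 protein-coding gene starts in the inner stretch and 106 in the terminal stretch, from 140 Mb to the end of the chromosome at base 145138636. The lists differed much in depth. The background rate recovered from them, in tags per window, was 2.29 and 1.35 in the naive libraries, 7.94 and 5.43 for R1, and 0.850 and 0.899 for R2. Depth decides how many weak peaks are called and how wide they are. Ranks within a list and tag pileups divided by the background rate were therefore compared in place of peak counts. The rule that chose this stretch used those ranks, so all differences below are descriptions and no test was made. With 2 libraries against 2, no exact test could give a p below 0.333.

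The terminal stretch was covered by peaks to a far greater part than the rest of the genome. Peaks took up 46.4% and 37.7% of its bases in the naive libraries, 64.5% and 60.5% for R1, and 16.7% and 18.0% for R2. Over the whole genome the same shares were 2.81% and 1.88%, 7.96% and 6.53%, and 0.883% and 0.973%. Every library was thus far above its own genome-wide share here, R2 included. The inner stretch was not: its shares were 2.45% and 1.32% in naive, 11.5% and 8.78% in R1, and 0.460% and 0.555% in R2.

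Within the terminal stretch the bin from 142 to 144 Mb stood highest. Peaks covered 62.3% and 52.1% of it in naive, 77.3% and 74.0% in R1, and 24.4% and 26.0% in R2. Of 1473 bins of 2 Mb with mostly known sequence, 3 in each naive library, 7 in each R1 library and 6 in each R2 library were covered at least as much, this bin among them. Its GC content was 55.7%. The 70 other bins of its GC class had a median cover of 21.4% and 14.4% in naive. In R1 this median was 42.7% and 37.8%, and in R2 5.22% and 5.72%. The class was broad, since the same bins also served for the bins from 140 and 144 Mb, which had lower GC content. How far the bin from 142 Mb exceeded bins closer to its own GC content was not tested. The most covered bin of 250 kb, from 144.25 Mb, holds 20 coding starts, among them those of HSF1, the heat shock transcription factor, and CPSF1, a subunit of the complex that cuts pre-mRNA at its 3′ end. It was covered to 77.8% and 69.2% in naive, 92.6% and 88.8% for R1, and 41.5% and 45.2% for R2. The bin from 140.75 Mb, with a GC content of 39.3% and no coding start, held 2 peaks in each naive library, 30 and 24 in R1 and none in R2.

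**Figure D1:**
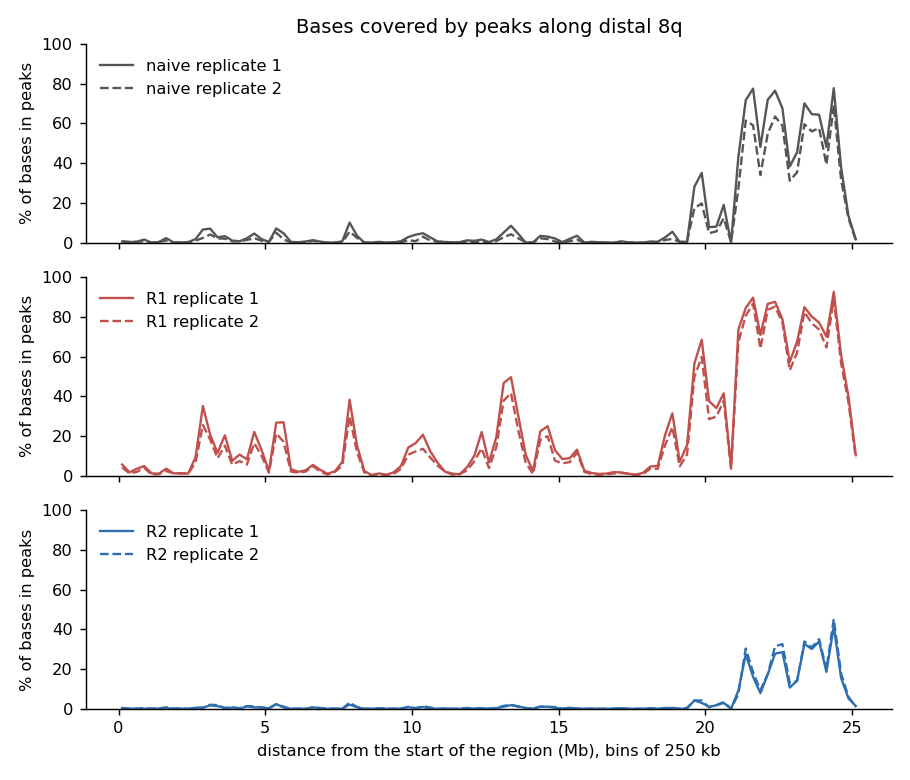
Share of bases covered by peaks in bins of 250 kb, against the distance from the start of the region in Mb, with 1 panel for each cell type and 1 line for each library. The terminal stretch stands out in all 6 libraries, and R1 also reaches 49.6% and 41.6% in the bin that holds the starts of NDRG1.

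The number of peaks per Mb in the terminal stretch hardly followed depth. It was 362 and 381 in naive, 347 and 350 in R1, and 337 and 350 in R2, although the lists held from 67558 to 340558 peaks in all. The peaks were wider instead. The widest in the naive libraries spanned 42205 and 23134 bp, in R1 50642 and 63886 bp, and in R2 5100 and 4196 bp. Fewer of these peaks lay at gene starts than elsewhere. Of the terminal peaks, 13.7% and 14.7% in naive, 10.6% and 11.0% in R1, and 24.7% and 22.4% in R2 had their summit within 1000 bp of a transcription start. Over all peaks of the lists these shares were 24.8% and 29.5%, 14.6% and 16.4%, and 37.9% and 36.7%.

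The share of each library's 20000 best peaks, ranked by p, that lay in distal 8q was 2.14% (95% Wilson interval 1.95 to 2.36%) and 2.46% (2.25 to 2.68%) in naive. It was 1.72% (1.54 to 1.90%) and 1.73% (1.56 to 1.92%) in R1, and 2.18% (1.99 to 2.40%) and 2.44% (2.23 to 2.66%) in R2. The means were 2.3% ± 0.219 (SD, n = 2) in naive, 1.72% ± 0.0106 in R1 and 2.31% ± 0.177 in R2. R1 was below both other types by more than the spread between libraries, and naive and R2 overlapped. Among the top 10000 the means were 2.245% in naive, 1.56% in R1 and 1.73% in R2, so that R2 then lay nearer to R1. The intervals cover counting error only. Split by stretch, the terminal share was 1.72% and 2.12% in naive, 1.20% and 1.23% in R1, and 1.86% and 2.02% in R2, and the inner share was 0.420% and 0.330%, 0.520% and 0.505%, and 0.330% and 0.415%. By this count of peaks, R1 was thus low in the terminal stretch and high in the inner one. A wide peak counts only once, and terminal peaks reached 50642 and 63886 bp in R1 against 5100 and 4196 bp in R2. The part of peak width in these shares was not tested.

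To compare the same places between libraries, the first R2 list served as a base, and those of its regions that met a peak in every list were ranked within each library, and the difference of the mean ranks of 2 cell types was adjusted for GC content. A rank shift below is this difference in percentile points. Of 36446 such overlapping regions, 1345 lay in distal 8q, 119 in the inner and 1226 in the terminal stretch. Overlap alone proved a loose match at the end of the arm. The 1226 terminal regions fell on only 468 and 601 distinct naive peaks and 289 and 307 distinct R1 peaks, because several R2 peaks sat on 1 wide peak. A second set was therefore made after this was seen, of regions where the summits of all lists lay within 250 bp of the summit in the base list. It held 14238 regions, 172 of them in distal 8q, 77 inner and 95 terminal, and is called matched below.

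In the terminal stretch the overlapping regions of R2 ranked far lower than in naive cells. The median rank shift of single libraries against the naive mean was -22.1 and -19.4 in R2 and -3.4 and -2.2 in R1, while the naive libraries themselves lay at 0.07 and -0.07. With matched summits the R2 values were -8.3 and -9.1, and those of R1 were -6.1 and -4.6. The distance between R1 and R2 was thus far smaller where summits were matched. The difference of R2 minus R1 was -18.8 over overlapping and -2.65 over matched regions. Both resistant types stayed below naive in both sets. For R1 the median matched shift over bins of 2 Mb of the whole genome was itself -3.40, and for R2 it was -1.45.

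Among all 1345 overlapping regions of distal 8q, 777 ranked lower in both R2 libraries than in both naive libraries, where 22.3% of all 36446 regions did so, and 83 ranked higher, where 26.4% did. For R1 the counts were 547 lower, against 34.5% of all regions, and 276 higher, against 27.4%. Comparing R2 with R1, 746 were lower, against 26.4%, and 157 higher, against 34.5%. Among the 172 matched regions, 72 were lower in R2 than in naive, against 22.7% of the matched regions, and 25 higher, against 21.5%. For R1 60 were lower, against 30.9%, and 53 higher, against 32.2%. R2 was below R1 in 81, against 32.2%, and above it in 33, against 26.9%. Such counts of regions and genes, here and below, compare ranks before the GC adjustment, while shifts are adjusted. Counts and shifts can therefore point different ways. The rule used these ranks, so nothing is read from the counts beyond their description.

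In tags over background the same difference was small. The median matched region of the terminal stretch had a pileup of 21.9 and 27.4 times the background in naive, 25.7 and 26.9 for R1, and 23.5 and 23.4 for R2. The median over all matched regions was 13.99 and 15.5 in naive, 17.5 and 16.9 for R1, and 18.8 and 18.9 for R2. Ratios to background, here and below, are not centred on this median. A region can thus rank lower in R2 than in naive at an equal or higher ratio. Relative to all regions, the terminal regions of R2 lay 0.33 lower than naive on the log2 scale, and those of R1 0.10 lower. Over the overlapping regions of distal 8q as a whole the log2 differences were -0.35 for R2 and -0.08 for R1. Most strong naive peaks overlapped a peak in R2. Of the naive top 20000 peaks in distal 8q, 89.5% and 92.8% of 429 and 88.0% and 91.0% of 491 overlapped a peak in the R2 libraries, and over all top peaks the shares were 88.1% to 90.6%. When the shared bases had to reach a fraction of 0.5, the shares in R2 were between 21.7% and 31.6% in distal 8q, where 48.9% to 58.0% of all top peaks were found.

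The inner stretch did not follow the terminal one. Its matched regions had median rank shifts of 10.2 and 5.3 in the R1 libraries and -0.1 and -1.9 in the R2 libraries. Over the overlapping regions the values were 2.2 and 2.2 in R1, and 1.6 and -0.3 in R2. These medians hide opposite moves of neighbouring bins, so the 13 bins of 2 Mb are described 1 by 1, with the number of matched regions in each. Every inner bin held fewer than 20 matched regions.

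**Figure D2:**
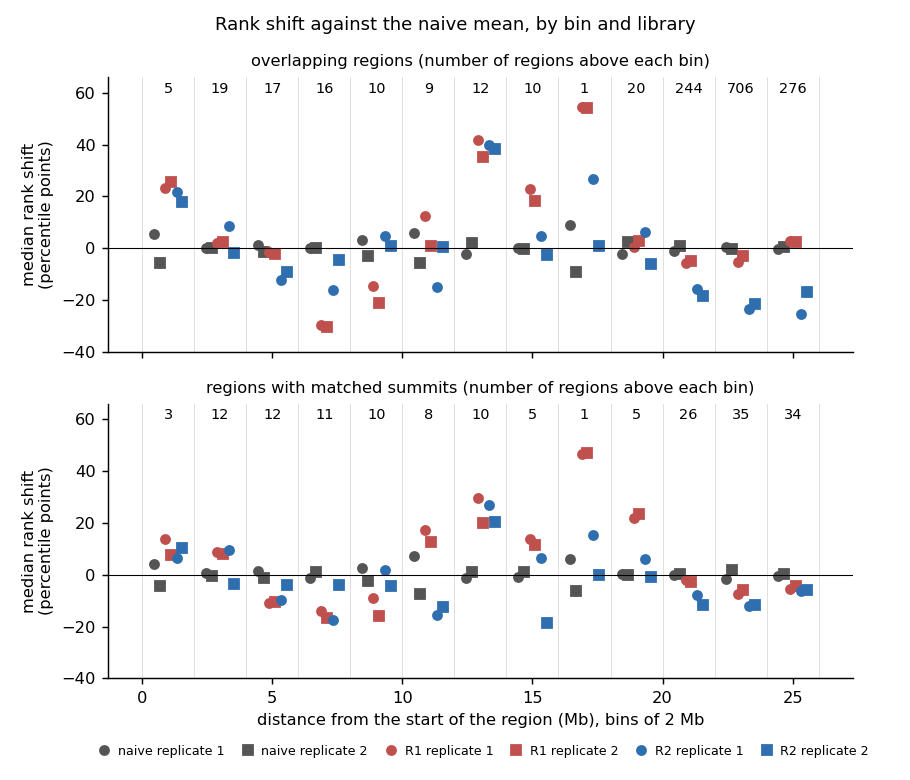
Median rank shift of each library against the naive mean in bins of 2 Mb, against the distance from the start of the region, for overlapping regions above and matched regions below. Numbers at the top count the regions in each bin, circles and squares are replicates 1 and 2. The bin from 12 to 14 Mb is higher in R1 and R2 in both panels, and R2 lies much lower in the last 3 bins of the upper panel than of the lower.

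The bin from 132 to 134 Mb ranked higher in both resistant types. Its 10 matched regions had median shifts of 29.5 and 19.98 in R1 and of 27.0 and 20.4 in R2. In 8 of the 10 both R1 libraries ranked above both naive libraries, against 32.2% of all matched regions. For R2 this was likewise so in 8, against 21.5%. The overlapping regions, 12 in number, gave 41.7 and 35.2 for R1 and 39.8 and 38.2 for R2. The counts of top peaks rest on the same p-values and are a description only. The naive libraries had 1 and 3 of their top 20000 peaks in this bin, R1 had 22 and 18, and R2 had 11 and 14.

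NDRG1, a gene induced by stress and hypoxia, had the highest values there. The region at a start within the gene, from 133296971 to 133298063, had a pileup of 10.1 and 18.5 times background in the naive libraries. R1 reached 61.8 and 60.0 times and R2 56.5 and 44.5 times, so all 4 resistant libraries were above both naive ones. In ranks this was 23.9 and 63.0 in naive, 99.5 and 99.4 in R1, and 97.4 and 95.3 in R2, a shift of 49.8 for R1 and 54.2 for R2. NDRG1 (ENSG00000104419.17) lies on the minus strand from 133237175 to 133302022.

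ST3GAL1, which encodes a sialyltransferase of the Golgi, lies next to it and showed the same order. The region at its start, from 133571758 to 133572688, had 10.5 and 17.8 times background in naive, 52.9 and 49.9 for R1, and 41.2 and 34.5 for R2. The resistant libraries were again all above the naive ones, with shifts of 50.05 in R1 and 47.95 in R2. Between both genes an intergenic region from 133453265 to 133453560 had 8.31 and 8.14 times background in naive, 20.3 and 16.9 in R1, and 14.1 and 22.3 in R2. Inside ST3GAL1 2 intronic regions had shifts of 15.2 and 16.8 in R1 and 13.6 and 16.1 in R2. A region in an intron of CCN4, a secreted matrix protein of the WNT pathway, had the largest rank shift of the bin in R1, at 61.7, though not the largest change of pileup. It had 8.74 and 8.14 times background in naive, 23.4 and 24.5 in R1, and 14.1 and 14.5 in R2. KCNQ3, a subunit of the neuronal M-type potassium channel, had a weak promoter region in naive cells, at 6.12 and 10.4 times background, with 17.0 and 13.8 for R1 and 15.3 and 14.5 for R2. In R1 the regions not above naive in this bin were PHF20L1 and an intron of TG, and in R2 they were PHF20L1 and the ST3GAL1 intronic region from 133486182. The promoter of PHF20L1, a reader of methylated lysine, had 30.6 and 26.6 times background in naive, 37.1 and 33.7 in R1, and 21.2 and 33.4 in R2, and the R2 library values straddled the naive ones.

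**Figure D3:**
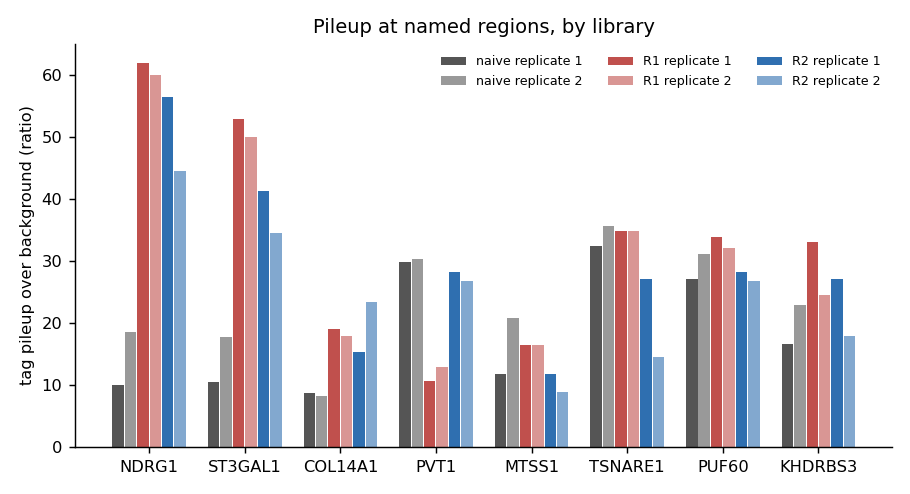
Tag pileup over background, a linear ratio, at 8 named regions, with 1 bar for each library. NDRG1, ST3GAL1 and COL14A1 are higher in all R1 and R2 libraries than in both naive libraries, and the region at an internal start of PVT1 is far lower in both R1 libraries and slightly lower in both R2 libraries.

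PVT1, a long noncoding RNA gene downstream of MYC, went the other way in R1. It was singled out after the values were seen, since it held 13 matched regions, the most of any gene of distal 8q. In 11 of the 13, both R1 libraries ranked below both naive libraries, and in 1 above, against 30.9% and 32.2% of all matched regions. Only 2 of the 13 lay at starts, and of all matched regions away from starts 42.8% were below and 22.1% above. The median shift of the 13 was -29.3 and -28.3 in the R1 libraries, and -15.1 and -11.2 in the R2 libraries. In R2 6 of the 13 were below naive and 1 above, against 22.7% and 21.5%. Of the 17 overlapping regions inside the gene, 14 were below naive in R1 and 1 above, against 34.5% and 27.4% of all overlapping regions.

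The largest rank shift lay at an internal transcription start of PVT1, from 127853981 to 127854445. Its pileup was 29.7 and 30.3 times background in naive, 10.6 and 12.9 in R1, and 28.2 and 26.7 in R2. Both R1 libraries were thus far below the 4 others, a rank shift of -69.0 against -13.7 in R2. A region at another internal start, from 128049050 to 128049430, had 21.9 and 22.9 times background in naive, 9.32 and 7.54 for R1, and 27.0 and 17.8 for R2. The region at the first start of the gene did not share this. From 127794175 to 127794520, it ranked at 44.6 and 49.3 in naive, 78.7 and 59.6 in R1, and 11.6 and 61.1 in R2, and its R1 shift was 16.7. By pileup the intronic region from 127907818 differed more, with 12.2 and 15.5 times background in naive, 4.79 and 4.05 in R1, and 11.8 and 15.6 in R2. By rank both R2 libraries were below naive there as well, at 11.6 and 35.7 against 38.8 and 49.3. The shift was -30.0 in R1 and -23.3 in R2.

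**Figure D4:**
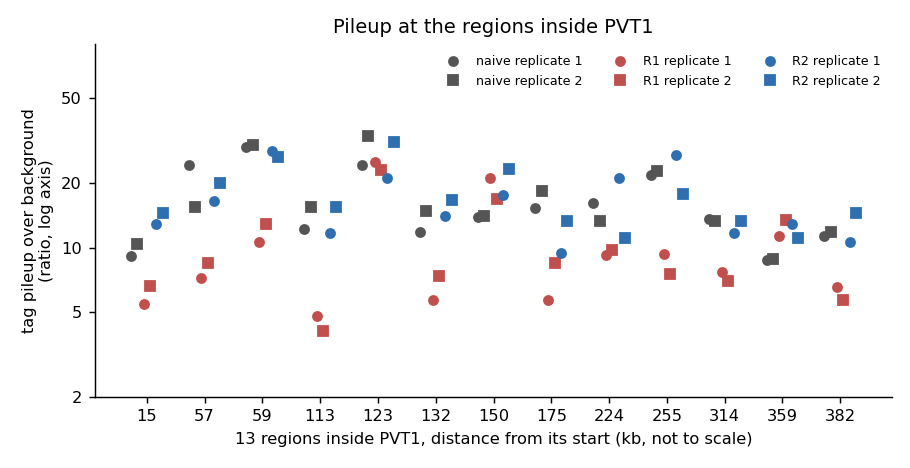
Tag pileup over background, on a log axis, at the 13 matched regions inside PVT1, in order along the gene and labelled with their distance from its start in kb. At most of the regions both R1 points lie below both naive points, while the R2 points are below naive by rank at 6 and above at 1.

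The bins from 126 and 128 Mb hold these regions, and over their 11 and 10 matched regions the shifts were -15.6 and -12.9 for R1 and -12.6 and -5.1 for R2. All 7 regions below naive in R1 in the first of these bins, and 4 of the 6 in the other, lay inside PVT1. The bin from 124 Mb, which does not reach PVT1, had shifts of -11.2 in R1 and -8.8 in R2 over 12 regions. Of these, 6 were below naive in R1 and 2 above, where 30.9% and 32.2% of all matched regions were. An intronic region of MTSS1, which links membranes to actin, from 124629562 to 124630069, had 20.5 and 19.98 times background in naive, 6.42 and 5.52 in R1, and 24.7 and 17.8 in R2. An intergenic region 47178 bp from the nearest start, that of EFR3A, had 30.2 and 22.9 times background in naive, 10.3 and 8.83 in R1, and 21.2 and 17.8 in R2. At the start of EFR3A itself, a plasma membrane anchor of a lipid kinase, the order turned: 16.6 and 15.5 in naive, 36.9 and 36.4 in R1, and 19.99 and 25.6 in R2. In the inner stretch the R1 shifts were larger at starts than away from them. The 30 matched regions at starts had R1 shifts of 12.9 and 7.2, and the 47 others 5.6 and 4.2. The order was the same over all matched regions, with 1.36 and 0.94 at starts and -2.65 and -2.02 away from them.

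The remaining inner bins rested on few regions. The bin from 130 Mb, with 8, had a shift of 15.4 in R1 and -14.1 in R2. The bins from 120, 134, 136 and 138 Mb, with 3, 5, 1 and 5, had shifts of 10.0, 12.3, 47.2 and 22.6 in R1 and of 0.82, -6.6, 7.2 and 3.8 in R2. In the bin from 122 Mb, with 12, they were 9.3 and 0.74. The last 3 bins, with 26, 35 and 34 matched regions, had -4.8, -6.3 and -5.4 in R1 and -7.8, -12.6 and -3.8 in R2. Over the genome 217 bins held at least 20 matched regions. Of these, 41.9%, 32.7% and 37.3% were as low or lower in R1, and 12.0%, 5.99% and 31.8% in R2.

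Some sites were among the most open in every cell type. The best region of the bin from 144 Mb, intergenic and 11877 bp from the start of HGH1, had 89.6 and 116 times background in naive, 65.7 and 89.4 in R1, and 150.5 and 126 in R2, and ranked at 99.3 or higher in all 6 libraries. An intronic region of MROH5 was the best from 140 Mb, at ranks of 98.9 to 99.6. The promoters of TRIB1, a pseudokinase, ATAD2, a bromodomain ATPase, and PYCR3, an enzyme of proline synthesis, led their bins at ranks of 94.9 to 98.3, 93.2 to 98.4 and 93.9 to 98.8. The best of the bin from 120 Mb differed between types, and was an intronic region of COL14A1, a collagen of fibrils, with 8.74 and 8.14 times background in naive, 19.0 and 17.8 in R1, and 15.3 and 23.4 in R2. In the bins from 128 and 130 Mb the best were a start shared by CYRIB and ENSG00000253720, and that of ENSG00000286535 inside ASAP1, which are described with those genes. Those from 126, 132, 134, 136 and 138 Mb were an intronic region of PVT1, the PHF20L1 promoter, the start of ENSG00000254028, a site 341233 bp from the start of LINC02055 and one 1833 bp from KCNK9.

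Genes of 9 groups were followed at their promoters, 99 in all. A region within 1000 bp of a start was found for 84 of them among overlapping and for 55 among matched regions, the 55 genes sharing 51 regions. Over the 55, the median shift was -5.48 in R1 and -4.56 in R2. In R1 16 were below naive and 13 above, where 23.6% and 38.3% of all 8825 matched regions at starts were. In R2 25 were below and 5 above, where 22.9% and 19.2% were. The 20 inner genes had medians of 5.46 in R1 and -0.27 in R2, and the 35 terminal genes -6.34 and -9.57. Among the terminal genes 21 were below naive in R2 and none above.

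**Figure D5:**
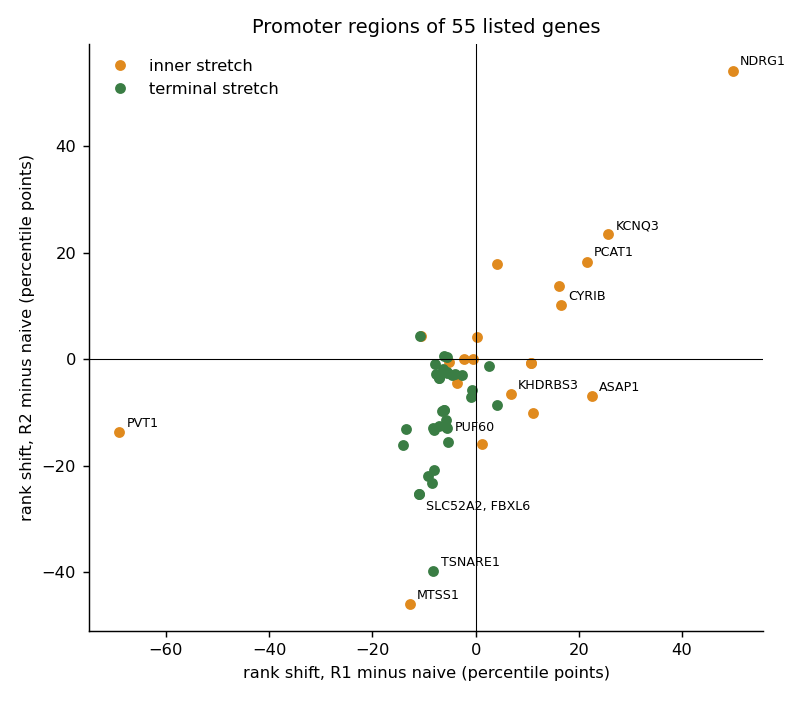
Rank shift of R2 against that of R1, each minus naive in percentile points, for the matched promoter regions of 55 listed genes, with the stretch in colour. Most terminal genes lie to the lower left of the origin, and NDRG1 and PVT1 lie farthest from the rest.

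Of 7 genes of RNA processing and translation with a matched region, 4 were below naive in R2 and none above, with a median of -9.57. Of all matched regions at starts, 22.9% were below and 19.2% above. In R1 3 were below and none above, with a median of -5.50, where 23.6% and 38.3% of all matched regions at starts were. The listed terminal genes as a whole had an R2 median of -9.57 too, with 21 of 35 below naive. Their R1 median was -6.34, with 14 of 35 below and 3 above. PUF60, a splicing factor that acts at 3′ splice sites, is on the minus strand from 143816344 to 143830709. Its promoter region had 27.1 and 31.1 times background in naive, 33.7 and 32.0 in R1, and 28.2 and 26.7 in R2. Its ranks were 91.1 and 91.4, 91.0 and 90.3, and 78.1 and 76.8, so that both R2 libraries were below all others. The promoter of KHDRBS3, an RNA-binding regulator of splicing, had 16.6 and 22.9 times background in naive, 33.0 and 24.5 in R1, and 27.0 and 17.8 in R2, and the libraries of R2 lay on either side of a naive one. CPSF1 had the lowest shift in R2, at -15.6, and ZC3H3, a nuclear zinc finger protein of mRNA export, the highest, at -2.93. MAF1, a repressor of RNA polymerase III, had the lowest in R1, at -7.12.

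Genes of DNA replication, repair and chromosome structure gave 5 matched promoters, with medians of -4.06 in R1 and -2.86 in R2. NSMCE2, a SUMO ligase of the SMC5/6 complex, had the highest shift in R1, at 10.7, and TOP1MT, the mitochondrial topoisomerase, the lowest, at -13.5. PARP10, a mono-ADP-ribosyltransferase, had the lowest in R2, at -23.3. Its R2 ranks of 25.6 and 68.4 were far apart. ATAD2 had the highest, at -0.043.

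The 7 adhesion, polarity and cytoskeleton genes with a matched region had medians of -0.84 in R1 and -7.16 in R2. In R1 4 of them were above naive and 1 below, where 38.3% and 23.6% of all matched regions at starts were. In R2 1 was above and 4 below, where 19.2% and 22.9% were. Over the 10 with an overlapping region the counts were alike, with 4 below and 3 above in R1 and 4 below and 4 above in R2. Their medians were -2.78 and -1.83. ASAP1, which switches off ARF GTPases at the membrane, had 14.4 and 15.5 times background in naive, 26.9 and 25.6 for R1, and 16.5 and 17.8 for R2. The start of ENSG00000286535 inside ASAP1 had 19.7 and 18.5 in naive, 44.2 and 40.1 in R1, and 28.2 and 26.7 in R2. CYRIB, a RAC1-binding brake on lamellipodia, was higher in both, with 18.8 and 23.7 in naive, 46.3 and 43.6 for R1, and 37.6 and 28.9 for R2. The MTSS1 promoter had the lowest R2 shift of all lists, -46.0. It rested on few tags, with 10 and 8 in R2, or 11.8 and 8.90 times background, against 11.8 and 20.7 in naive and 16.4 and 16.4 in R1.

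Among neuronal genes 4 had a matched promoter. KCNQ3 had the highest shift in both types, 25.7 and 23.4. TSNARE1, a gene with a t-SNARE domain, had the lowest, -8.18 in R1 and -39.8 in R2. Its pileup was 32.4 and 35.5 times background in naive, 34.8 and 34.8 in R1, and 27.0 and 14.5 in R2, and replicate 2 of R2 was far below all others. For the LY6 family, 9 of 10 genes had an overlapping region, with median shifts of -11.1 in R1 and -11.1 in R2. In R1 6 ranked below naive and 1 above, where 30.5% and 30.3% of all overlapping regions at starts did. In R2 4 ranked below and none above, where 19.5% and 28% did. Only PSCA, the prostate stem cell antigen gene, had a matched region. Its shifts were -14.1 and -16.1, with R2 ranks of 54.1 and 82.8.

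The 11 zinc finger genes with a matched promoter had medians of -5.72 in R1 and -2.69 in R2. In R1 none was below naive and 3 were above, where 23.6% and 38.3% of all matched regions at starts were. In R2 2 were below and 1 above, where 22.9% and 19.2% were. ZHX2, a transcriptional repressor of the inner stretch, had the highest shift in both, 16.1 and 13.7, with 7.43 and 8.88 times background in naive, 12.97 and 12.5 for R1, and 12.9 and 13.4 for R2. The lowest were ZNF707 in R1, at -10.7, and ZNF623 in R2, at -22.0. The mitochondrial and metabolic genes, 9 with a matched promoter, had medians of -5.76 and -4.56. SLC52A2, a riboflavin transporter, had the lowest shift in both types, -11.0 and -25.3, at a region it shares with the F-box gene FBXL6. It had 24.9 and 40.0 times background in naive, 30.9 and 30.0 for R1, and 23.5 and 22.3 for R2. The highest were NDUFB9, a subunit of respiratory complex I, in R1, at 11.0, and TMEM65, a protein of the inner mitochondrial membrane, in R2, at 4.27.

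Of the 9 stress, ubiquitin and regulator genes with a matched promoter, NDRG1 was the highest and FBXL6 the lowest in both types. HSF1 and the ribosome biogenesis gene BOP1 share 1 region, with ranks of 96.5 and 96.7 in naive, 95.6 and 96.5 in R1, and 82.1 and 86.2 in R2. Of the long noncoding RNA genes, PVT1 and PCAT1 had a matched region. That of PCAT1, which it shares with LRATD2, had 21.0 and 15.5 times background in naive, 33.1 and 29.8 in R1, and 28.2 and 32.3 in R2. A start of CASC8 held a peak in both R1 libraries and in no other, and R1 was the deepest type.

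Among the 172 matched regions, 47 ranked lower in both R2 libraries than in all 4 others and 7 ranked higher, where 11.1% and 10.2% of all 14238 matched regions did. The rule used these ranks too. Of the 47, 31 were at starts, as were 81 of the 172. The 5 at starts with the largest difference were those of LINC00051, MTSS1, TSNARE1, ZNF16 and MROH6, and only an alternative start of ZNF16 was higher in R2, at 16.5 and 20.03 times background against 7.43 and 7.40 in naive and 9.82 and 9.57 in R1. Away from starts the 5 were near ENSG00000253266, ZNF251 and ENSG00000288096 and in introns of ZC3H3 and ADGRB1, an adhesion receptor of neurons. The intergenic one 11284 bp from ZNF251 was the highest in R2. It had 21.0 and 20.7 times background in naive, 9.44 and 12.5 in R1, and 35.3 and 54.5 in R2, a different order in each type with no overlap between types. That of ADGRB1 had 25.8 and 28.9, 33.4 and 30.9, and 24.7 and 18.9.

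Regions in the top 20000 of both libraries of 1 type with no peak in the other 4 lists numbered 6 of 235 in the series for R1, all in the inner stretch. There were 0 of 11 for naive and 0 of 48 for R2. Of all top 20000 peaks, distal 8q held a mean of 2.3% in naive, 1.72% in R1 and 2.31% in R2. Its inner stretch held 0.51% in R1. R1 was the deepest type, and the part of depth in these counts was not tested. Those in introns of KCNQ3, from 132413641 to 132414607, and of ZFAT, a zinc finger gene, from 134609939 to 134610511, had 131 and 85 and 130 and 78 tags. The third and best was intergenic, 34482 bp from the nearest start.

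The motif of AP-1, TGANTCA, which reads the same on both strands, was counted within 50 bp of summits. It lay in 11 of the 47 matched inner regions away from starts, or 23.4%, and in 4 of the 44 terminal ones, or 9.09%, where 11.5% of all 5413 such regions held it. On the rest of chromosome 8, 13.9% of 122 matched regions away from starts held it. Over the overlapping regions the inner, terminal and overall shares were 20.3%, 3.06% and 5.95%. Of all inner peaks away from starts in each list, 7.17% and 8.25% held it in naive, 4.63% and 3.98% in R1, and 15.2% and 10.6% in R2, where the lists as a whole had 5.62% and 4.67%, 3.42% and 3.20%, and 5.24% and 5.08%. For peaks away from starts on the rest of chromosome 8 they were 9.59% and 7.43% in naive, 3.63% and 3.58% in R1, and 8.09% and 8.92% in R2. A match is a match of letters and not a bound site.

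At the boundary of 120 Mb, the first peaks inside had percentile ranks in their own lists of 52.1 and 25.9 in naive, 38.5 and 14.8 for R1, and 74.6 and 92.3 for R2. The last peaks outside had 72.5 and 99.4, 16.9 and 61.9, and 32.0 and 96.8. The least deep libraries limit all of these values. The lowest pileup called in R2 was 6 tags, and many R2 regions above rest on 10 to 30 tags, so that 1 R2 library alone often decides a rank.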

How the data were processed

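The authors deposited 1 peak list for each of 6 ATAC-seq libraries. By the submitters' processing notes and the methods, reads were aligned with BWA 0.7.12-r1039, duplicates marked with Picard 1.65, reads filtered with SAMtools 1.3.1, ends offset for Tn5, and peaks called in each library with MACS2 2.2.7.1 at a q of 0.01. The notes name hg19 and hg38 and the methods hg19. The coordinates reach hg38 chromosome ends, so hg38 and GENCODE release 44 were used. Each deposited peak has a fold enrichment (a ratio to a background rate) with its −log10 p-value and −log10 q-value from the authors' caller. Reads and depth per library were not used here.

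All folds of a list are multiples of 1 step, which gave 1 background rate for the whole list and from it the pileups in tags. A level raised over a wide stretch is thus not taken off. With the first R2 list as base, regions that shared at least 1 base with a peak of every list were given percentile ranks by p, and differences from naive were adjusted by the median of 20 classes of GC content (summit ± 250 bp). Matched regions had all summits within 250 bp of the R2 summit. Shares have 95% Wilson intervals. Functions were tested on simulated data and overlaps checked against BEDTools 2.31.1. Scripts ran in Python 3.11.15 with SciPy 1.17.1, pandas 2.3.3, NumPy 2.4.6 and Matplotlib 3.10.9.

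The members, the 9 gene lists and the 2-Mb bins were chosen with earlier results of these data known. Named singly were, in each list, the genes with the highest and lowest shift in each resistant type, PUF60 and KHDRBS3, the best region of each bin, the 3 best regions found in 1 type only, and the 5 starts and 5 other regions with the largest R2 difference among those with R2 on 1 side of both other types. These were taken from the matched regions, a restriction made after seeing the data. ST3GAL1, CCN4, EFR3A, the regions within PVT1, the intronic region of MTSS1, HSF1 and BOP1, and CASC8 were named after their values were seen. Alternatives were other ranks, region sets, thresholds, summaries, classes of region, overlaps, bins and numbers of top peaks, and leaving out each library.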

Additional observations from a re-analysis of the deposited data

Results flagged for a closer look

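By rank, R1 and R2 moved to opposite sides of both naive libraries in a few places, and the difference was not tested. Over overlapping regions the bin from 144 Mb shifted by 2.02 in R1 and -21.6 in R2, but over matched regions R1 was at -5.37 there. Over matched regions the bin from 130 Mb, with 8 regions, shifted by 15.4 in R1 and -14.1 in R2.

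Of the named regions, the start of LINC00051 had an R1 shift of 15.8 and an R2 shift of -36.8, and an intergenic region 25273 bp from the start of ENSG00000253266 had 20.8 and -43.9. The ASAP1 promoter shifted by 22.6 and -6.96, although its ratios to background in R2 lay above those of naive. In the other direction, the intergenic region near ZNF251 had -50.4 for R1 and 17.6 for R2, and the TMEM65 promoter -10.5 and 4.27.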

How the results depend on the processing

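No paired analysis was possible because the results come from no test and the replicate numbers are not stated to mark a shared culture. The terminal shift of R2 was negative under all 19 alternatives, from -25.1 to -8.18, and that of R1 likewise, from -14.7 to -0.31, while the inner shifts took both signs. For R1 the median over bins of the whole genome was negative too, at -1.23 with overlapping and -3.40 with matched regions. Not all 19 were separate checks. Ranking by fold gave the values as reported, -21.5 for R2 and -2.79 for R1. Leaving out a library of the type not compared could not change a shift. The terminal R2 minus R1 ran from -22.2 to 3.89 and was positive in 1 setting, the overlap of a fraction of 0.5, with 6 regions. The cause of the changes below was not tested.

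The shift of all distal 8q regions was -2.56 for R1 minus naive, -20.1 for R2 minus naive and -16.96 for R2 minus R1. With the first naive list as base it was -3.58, -9.95 and -5.92, and with overlap of a fraction of 0.5, which left 17 regions, -5.46, -3.20 and -0.90. With summits matched at 250, 100 and 500 bp, chosen after seeing the data, it was -4.04, -3.49 and -3.66 for R1 minus naive, -6.09, -6.69 and -6.54 for R2 minus naive, and -3.50, -3.78 and -4.17 for R2 minus R1. At starts R1 minus naive was -1.44 and R2 minus R1 -19.97, and away from starts R1 minus naive was -3.61. With −log10 q of at least 5 R2 minus naive was -22.4 and R2 minus R1 -18.3. The mean in place of the median turned R1 minus naive to 0.044 and gave -20.7 for R2 minus R1. Without 1 library the 3 shifts ran from -3.04 to -1.82, -20.1 to -18.2 and -18.4 to -16.0.

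R1 was below naive in 5 bins, in 8 with the naive base and in 3 of 6 bins of 5 Mb, and R2 in 6 bins and in 2 of the 5-Mb bins. R1 turned in the bin from 122 Mb to -1.73 with the naive base and -2.49 at starts, and in that from 126 Mb to 15.3 at starts. In the bin from 144 Mb it turned to -1.35 with the naive base, -0.071 at starts and -5.37 with matched summits, and without 1 library it ran from -0.14 (without replicate 2 of naive) to 2.79. The share of top peaks was 2.12% in naive and 2.93% in R2 over all peaks, and for the top 10000 it was 2.245% in naive, 1.56% in R1 and 1.73% in R2. The log2 pileup difference with the naive base was -0.16 in R1 and -0.23 in R2, at starts -0.15 and -0.51, and with matched summits -0.20 in R2. With overlap of a fraction of 0.5 27.0% of the naive top peaks of distal 8q were found in R2 and 33.0% in R1, where 48.9% to 58.0% and 35.2% to 57.9% of all top peaks were. With an overlap of 1 base, 97.5% of the naive top 10000 in distal 8q were found in R2. The promoter shift of all lists without the GC adjustment was -1.46 in R1 and -2.32 in R2, with matched summits -5.48 and -4.56, and with a window of 500 bp -4.53 in R2. Depth limits R2 most.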
